A study of Mus musculus with 20 samples.

Results

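Complement is a set of plasma and cell surface proteins that mark particles for uptake and recruit leukocytes. The classical pathway begins when C1q, built from A, B and C chains, binds antibody complexes or dying cells, and it proceeds through C4 and C2 to cleavage of C3. The alternative pathway uses factor B, which forms the C3-cleaving enzyme, and properdin, which stabilises that enzyme. The small fragments released from C3 and C5 are anaphylatoxins, and myeloid cells sense them through the receptors C3aR1 and C5aR1. Macrophages are a known local source of C1q and properdin, and C3 and factor B are commonly made by activated macrophages.

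The genes described here are 10 members of this system, taken by symbol: the C1q chains C1qa, C1qb and C1qc, the components C2, C3 and C4b, the alternative pathway genes Cfb (factor B) and Cfp (properdin), and the receptors C3ar1 and C5ar1. They are 10 of 78409 annotated entries, of which 34373 had a count in at least 1 library. The rule uses no measured value, though earlier results of these data were known when the genes were chosen.

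The RNA came from bone marrow-derived macrophages (BMDMs) of wild-type female C57BL/6J mice, matured in L929-conditioned medium and treated on day 7 of culture, with the receiving cells of the same genotype in every group. There were 5 groups of 4 libraries. The control group received PBS. The other groups received bronchoalveolar lavage fluid (BALF) of OVA-challenged mice, separated by size exclusion chromatography into a fraction enriched in extracellular vesicles (EVFx, added at 35000000 particles per µL) or in protein (ProteinFx, added at 0.75 µg protein per µL). Fluid came from RNY1+/+ mice or from RNY1-/- mice, in which CRISPR had removed RNY1, a Y RNA, so the genotype is that of the fluid donors and not of the macrophages. Both fractions were stored for 5 days before use, and no storage is stated for the PBS control. Storage therefore cannot be told apart from treatment in the comparisons with PBS. EVFx and ProteinFx were dosed on different scales, so a difference between them is a difference between these 2 preparations as dosed. Neither the labels nor the methods state what separates 1 replicate from another (mouse, fluid pool or culture well), so p-values may measure only technical spread.

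Library totals ranged from 2510005 to 8277366 counts, and the floor of 3 counts used here lay between 0.362 and 1.195 CPM (CPM being each count scaled to its library total). All 7 macrophage markers were above that floor in every group, with a summed level of 8450 to 12848 CPM per library. The eosinophil gene Epx and the lung epithelial genes Sftpc, Sftpb and Scgb3a2 had no count in any group, but 1 other lung epithelial marker exceeded the floor in every group and 1 other eosinophil marker in 3 groups. Per library, the summed levels reached 3.30 CPM for lung epithelial, 2.83 CPM for eosinophil, 9.02 CPM for T cell, 1.68 CPM for B cell and 23.3 CPM for fibroblast markers. Neutrophil markers summed to 281 to 332 CPM with PBS, 143 to 209 CPM with RNY1+/+ EVFx, 184 to 265 CPM with RNY1-/- EVFx, 198 to 323 CPM with RNY1+/+ ProteinFx and 239 to 353 CPM with RNY1-/- ProteinFx, and 4 of those 7 genes exceeded the floor in each group. Ly6g had no count with PBS, either EVFx preparation or RNY1-/- ProteinFx. Elane had none in both RNY1-/- groups, and Mpo had none with RNY1-/- EVFx. In bulk RNA, fewer cells of a type and less RNA per cell cannot be told apart.

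Libraries within a group were not equally alike. Replicates 1 and 2 were the closest pair over all genes in 4 of the 5 groups. In PBS, both had more of 6 of the 8 measurable complement genes than either replicate 3 or replicate 4; this held for 8 of 8 in RNY1-/- EVFx and for 7 of 8 in RNY1-/- ProteinFx, against 3 in RNY1+/+ EVFx and 2 in RNY1+/+ ProteinFx. In PBS and both RNY1-/- groups, the count-weighted GC content of expressed genes was higher in replicates 1 and 2 than in replicates 3 and 4. It was 46.7%, 46.7%, 45.7% and 45.9% in RNY1-/- ProteinFx replicates 1 to 4, and 47.6%, 47.7%, 46.1% and 47.0% in PBS. The shift was small in RNY1-/- EVFx, at 46.2%, 46.3%, 46.0% and 45.9%. The RNY1+/+ groups showed no such split, with 47.0%, 47.0%, 46.9% and 47.4% in EVFx and 46.1%, 46.0%, 46.4% and 46.0% in ProteinFx. Transcripts of the C1q genes had a GC content of 57.4% to 59.5%, and that of C3ar1 had 43.0%. Across all genes tested, log2 fold changes against PBS fell with GC content for RNY1+/+ ProteinFx (Spearman rho -0.46), RNY1-/- EVFx (-0.42) and RNY1-/- ProteinFx (-0.49). For RNY1+/+ EVFx rho was -0.09. For ProteinFx against EVFx it was -0.49 within RNY1+/+ and 0.07 within RNY1-/-, and for genotype in ProteinFx 0.16. Values without these library pairs, and after removal of length and GC trends, are therefore given beside many of the results below.

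The genes sit in a few places of the genome. In the GENCODE annotation of GRCm38, C1qb (chr4:136880129-136886187), C1qc (chr4:136889804-136893065) and C1qa (chr4:136895917-136898803) lie next to each other on the minus strand of chromosome 4, with gaps of 3616 and 2851 bases. Cfb (chr17:34856374-34862518) ends 85 bases before C2 (chr17:34862604-34898265), also on the minus strand, and C3 (chr17:57203970-57228136) lies on the same chromosome. Cfp is on chromosome X, C3ar1 on chromosome 6 and C5ar1 on chromosome 7. RefSeq promoter sequences of GRCm38.p6, from 250 bases before to 50 after the gene start, were matched for 6 of the 10 genes: C1qb, C1qc, C3, Cfp, C3ar1 and C5ar1. They were searched on both strands for a STAT dimer motif (GAS, TTCNNNGAA), an interferon regulatory factor motif (IRF, GAAANNGAA), an NF-kB motif (GGNNTTTCC) and a PU.1 motif (GAGGAAG), since the genes described below rose or fell with the fractions and these factors act in macrophages. C1qc held a PU.1 match at bases -194 to -188, C3ar1 an NF-kB match at -14 to -6 and C5ar1 an IRF match at -66 to -58, all on the strand opposite the gene. C1qb, C3 and Cfp held no match. Of 32851 promoters of the same length, 8.3% held the GAS letters, 8.56% the IRF letters, 5.82% the NF-kB letters and 13.6% the PU.1 letters, so these matches are a description of the sequence only. The promoter of C3, which rose in every treated group, is shown with those of the genes that held a match, 5′ to 3′ on the gene's strand, with matches in capitals.
C3, chr17:57228087-57228386, minus strand: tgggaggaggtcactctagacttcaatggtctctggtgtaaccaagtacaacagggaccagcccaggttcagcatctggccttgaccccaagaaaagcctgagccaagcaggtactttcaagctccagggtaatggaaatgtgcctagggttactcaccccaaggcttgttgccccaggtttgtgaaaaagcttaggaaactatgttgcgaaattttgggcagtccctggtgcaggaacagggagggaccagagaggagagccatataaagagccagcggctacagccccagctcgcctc
C1qc, chr4:136892865-136893164, minus strand: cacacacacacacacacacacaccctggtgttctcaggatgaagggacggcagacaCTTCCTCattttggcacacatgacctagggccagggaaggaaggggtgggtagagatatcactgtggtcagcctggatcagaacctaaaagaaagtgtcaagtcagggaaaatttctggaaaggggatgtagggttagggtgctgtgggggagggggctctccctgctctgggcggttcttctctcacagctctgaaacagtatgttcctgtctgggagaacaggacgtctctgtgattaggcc
C3ar1, chr6:122856108-122856407, minus strand: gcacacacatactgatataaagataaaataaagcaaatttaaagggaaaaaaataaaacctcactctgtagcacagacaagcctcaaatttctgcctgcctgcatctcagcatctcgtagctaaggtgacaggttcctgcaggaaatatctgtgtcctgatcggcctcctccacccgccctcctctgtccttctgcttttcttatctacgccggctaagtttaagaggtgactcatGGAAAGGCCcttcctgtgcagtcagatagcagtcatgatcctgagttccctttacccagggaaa
C5ar1, chr7:16259289-16259588, minus strand: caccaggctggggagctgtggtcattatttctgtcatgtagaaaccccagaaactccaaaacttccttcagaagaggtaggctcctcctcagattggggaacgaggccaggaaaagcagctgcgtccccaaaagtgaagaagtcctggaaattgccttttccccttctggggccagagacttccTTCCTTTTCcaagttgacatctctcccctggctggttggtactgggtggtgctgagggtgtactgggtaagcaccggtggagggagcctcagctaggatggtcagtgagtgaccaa

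**Figure D1:**
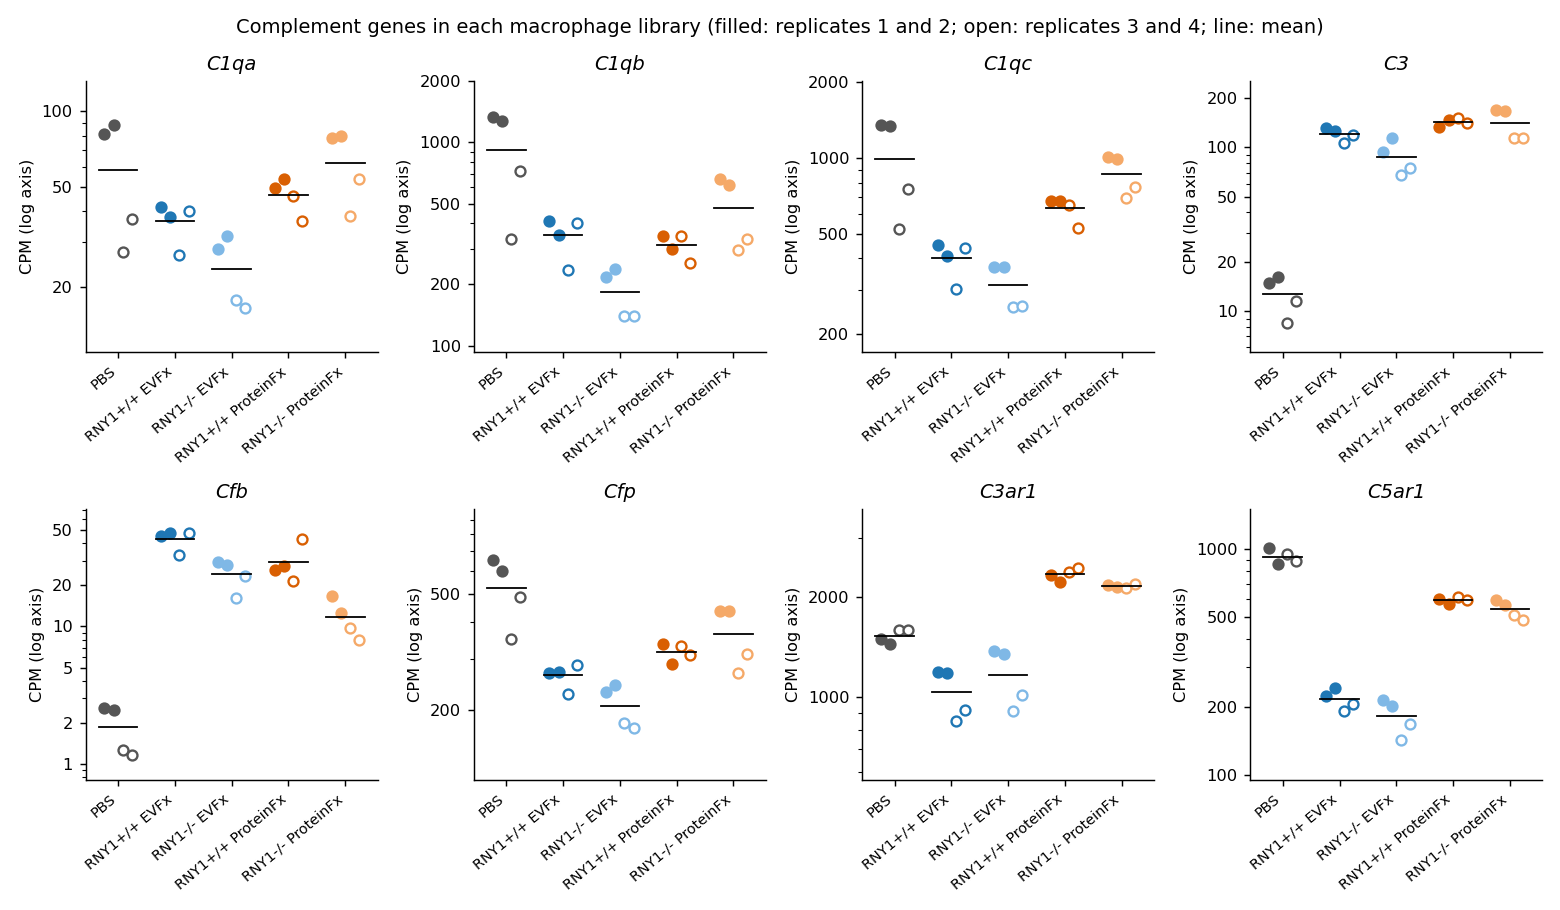
CPM of the 8 measurable complement genes (vertical axes, log scale) in each library of the 5 groups (horizontal axes). Filled points are replicates 1 and 2, open points replicates 3 and 4 and lines group means. C3 lay between 67.7 and 169 CPM in the treated libraries and between 8.46 and 16.2 CPM with PBS, and C5ar1 was lowest in both EVFx groups.

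The first question was how each fraction changed complement genes relative to PBS. All 4 fractions raised C3 and lowered C5ar1. Cfb also stood higher in all 4, but the treated libraries carried it past the filter on low counts. No test against PBS is therefore read from Cfb, and the counts below include it. In the main test, both EVFx preparations also lowered C1qb, C1qc and Cfp, and both ProteinFx preparations raised C3ar1. The C1qb call with RNY1+/+ EVFx and the C3ar1 call with RNY1-/- ProteinFx were less stable, as given below. Of the 10 genes, 8 passed the filter on low counts in every comparison, and C2 and C4b did not. A gene was called at an adjusted p under 0.05 by edgeR's quasi-likelihood test, with the adjustment over all genes tested. With RNY1+/+ EVFx, 2 of the 10 genes rose and 5 fell, where 21.7% of all genes tested rose and 22.8% fell. With RNY1-/- EVFx, 2 rose and 5 fell, beside 27.7% and 30.6% of all genes. With RNY1+/+ ProteinFx, 3 rose and 3 fell, beside 25.9% and 29.3%. With RNY1-/- ProteinFx, 3 rose and 1 fell, beside 16.7% and 19%. The median absolute log2 fold change of the 8 genes was 1.17, 1.76, 0.67 and 0.64 in the same order, beside 0.39, 0.53, 0.51 and 0.42 for all genes tested. The 4 comparisons share the PBS libraries, so they are not independent of each other.

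C3, whose product is cleaved in every complement pathway, stood at 14.8, 16.2, 8.46 and 11.6 CPM in PBS replicates 1 to 4. It stood at 130.4, 126, 106 and 118 CPM with RNY1+/+ EVFx and at 93.0, 113, 67.7 and 74.4 CPM with RNY1-/- EVFx. With ProteinFx it reached 134, 146, 151 and 139.8 CPM (RNY1+/+) and 169, 167, 114 and 114 CPM (RNY1-/-). No treated library overlapped the PBS libraries. The log2 fold changes against PBS were 3.40 (SE 0.18, adjusted p = 8.5e-08) for RNY1+/+ EVFx and 3.63 (SE 0.17, adjusted p = 1.5e-08) for RNY1+/+ ProteinFx, which is 10.6-fold and 12.4-fold. For the RNY1-/- fractions they were 3.00 (SE 0.21, adjusted p = 7.5e-07) and 3.52 (SE 0.22, adjusted p = 1.1e-06).

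Cfb encodes factor B, the alternative pathway protease. Its reads are split with an overlapping entry, Gm20547, which in GRCm38 overlaps Cfb and part of C2 on the same strand. The counts of the 2 entries were equal in 13 of the 20 libraries and differed by at most 4 counts in the others, so the values listed for Cfb are close to 50% of the reads at that locus. As listed, Cfb had 2.56, 2.47, 1.26 and 1.16 CPM in PBS, which is 5.5 to 16 counts, and it passed the filter through the treated groups. It had 45.4, 47.4, 33.1 and 47.6 CPM with RNY1+/+ EVFx and 29.1, 28.0, 16.1 and 23.2 CPM with RNY1-/- EVFx. With ProteinFx it had 25.6, 27.4, 21.4 and 42.7 CPM (RNY1+/+) and 16.7, 12.6, 9.76 and 7.91 CPM (RNY1-/-). Thus RNY1+/+ EVFx gave the highest group mean and RNY1-/- ProteinFx the lowest of the 4 treated groups, and all lay above PBS. The log2 fold changes against PBS were 4.71 (SE 0.23) and 3.93 (SE 0.28) for RNY1+/+ and RNY1-/- EVFx, and 4.14 (SE 0.31) and 2.71 (SE 0.32) for RNY1+/+ and RNY1-/- ProteinFx. No test against PBS is read from these values, given how Cfb passed the filter. With both entries summed the fold changes were 4.70, 3.92, 4.12 and 2.696, and no call changed. The summed entries had 5.12, 4.94, 2.52 and 2.31 CPM in PBS replicates 1 to 4.

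Cfp encodes properdin, a positive regulator of the alternative pathway enzyme. PBS libraries had 654, 599, 349 and 489.5 CPM. RNY1+/+ EVFx libraries had 267, 270.1, 227 and 285 CPM and RNY1-/- EVFx libraries 230.4, 243, 180.05 and 173 CPM, all below the lowest PBS library. The fall was 0.82 on the log2 scale with RNY1+/+ EVFx (-0.82, SE 0.17, adjusted p = 0.0028) and larger with RNY1-/- EVFx (-1.10, SE 0.19, adjusted p = 0.0005). With ProteinFx, values were 336, 288, 332 and 309 CPM (RNY1+/+; -0.56, SE 0.17, adjusted p = 0.017) and 438, 438, 268 and 311 CPM (RNY1-/-; -0.46, SE 0.21, adjusted p = 0.11). Without length and GC trends, the RNY1+/+ ProteinFx value was -0.04 (adjusted p = 0.7), and without PBS replicates 1 and 2 it was -0.26 (adjusted p = 0.2). The RNY1-/- ProteinFx value passed with the replicate block (-0.45, adjusted p = 0.00039), in 1 fit of all 20 libraries (adjusted p = 0.023) and without a filter (adjusted p = 0.036). It also passed without PBS replicates 3 and 4 (-0.73, adjusted p = 0.0083), and was 0.0011 (adjusted p = 0.99) without length and GC trends.

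Among the 8 measurable genes, the C1q genes had the widest relative spread between control libraries. C1qb had 1336, 1278, 333 and 721 CPM in PBS, C1qc had 1350.5, 1346, 525 and 756 CPM, and C1qa had 80.9, 88.1, 27.4 and 37.4 CPM. In each of the 3 genes, PBS replicate 3 was lowest and replicates 1 and 2 were highest. C1qb stood at 409, 350.2, 235 and 403 CPM with RNY1+/+ EVFx and at 217, 237, 140.1 and 139.8 CPM with RNY1-/- EVFx, and C1qc at 453, 408, 303 and 439 CPM and at 370.2, 369.6, 256 and 259 CPM. All 8 EVFx libraries were below the 4 PBS libraries for C1qc, while for C1qb 3 RNY1+/+ EVFx libraries lay above PBS replicate 3. C1qb was lower by -1.21 (SE 0.36, adjusted p = 0.019) and -2.08 (SE 0.37, adjusted p = 0.00069) on the log2 scale. The RNY1+/+ EVFx call of C1qb was lost without PBS replicate 1, PBS replicate 2 or RNY1+/+ EVFx replicate 3 (adjusted p up to 0.06). C1qc was lower by -1.13 (SE 0.27, adjusted p = 0.0061) and -1.43 (SE 0.28, adjusted p = 0.0012). C1qa had 41.4, 38.0, 26.6 and 40.2 CPM with RNY1+/+ EVFx (-0.50, SE 0.32, adjusted p = 0.24) and fell with RNY1-/- EVFx to 28.4, 31.7, 17.7 and 16.5 CPM (-1.06, SE 0.35, adjusted p = 0.022), a call lost with length and GC trends removed (-0.29, adjusted p = 0.29).

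With ProteinFx, C1qb with the RNY1+/+ preparation passed the main test, and the other C1q values did not. C1qb had 346, 298, 346 and 256 CPM with RNY1+/+ ProteinFx (-1.39, SE 0.34, adjusted p = 0.005) and 658, 619, 294 and 336 CPM with RNY1-/- ProteinFx (-0.89, SE 0.40, adjusted p = 0.1). The RNY1-/- value of C1qb passed with the replicate block (-0.78, adjusted p = 0.00013), in 1 fit of all 20 libraries (adjusted p = 0.023), without a filter (adjusted p = 2.5e-06) and without RNY1-/- ProteinFx replicates 1 and 2 (-1.41, adjusted p = 0.049). C1qc had 678, 679, 649 and 527 CPM and 1010.2, 989, 693 and 772 CPM, with log2 differences of -0.48 (adjusted p = 0.13) and -0.14 (adjusted p = 0.7). C1qa had 49.4, 53.5, 46.0 and 36.6 CPM and 78.0, 79.6, 38.2 and 53.7 CPM, with log2 differences of -0.18 (adjusted p = 0.65) and 0.16 (adjusted p = 0.74). These values depended on which PBS libraries were used, and without PBS replicates 3 and 4 the number of genes called with RNY1-/- ProteinFx rose from 4 to 7. Without that pair, C1qa (-0.74, adjusted p = 0.00013) and C1qc (-0.96, adjusted p = 3.6e-06) were lower with RNY1+/+ ProteinFx, and C1qc was lower with RNY1-/- ProteinFx (-0.59, adjusted p = 0.011). Without PBS replicates 1 and 2, C1qb was not called with RNY1+/+ EVFx (-0.44, adjusted p = 0.24) or RNY1+/+ ProteinFx (-0.62, adjusted p = 0.068), C1qa was not called with RNY1-/- EVFx (-0.22, adjusted p = 0.51), and C1qa was higher with RNY1+/+ ProteinFx (0.65, adjusted p = 0.016) and RNY1-/- ProteinFx (1.01, adjusted p = 0.046). With length and GC trends removed, C1qa was higher with both ProteinFx preparations (0.64, adjusted p = 0.01, and 0.92, adjusted p = 0.0041) and C1qc with RNY1-/- ProteinFx (0.50, adjusted p = 0.018).

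The 3 C1q chains did not move in proportion. Per library, the C1qa count was 0.0519 to 0.0824 times the C1qb count with PBS and 0.0998 to 0.180 times it in the treated libraries. C1qc counts were 1.01 to 1.58 times C1qb counts with PBS, 1.09 to 1.29 times with RNY1+/+ EVFx, 1.56 to 1.85 times with RNY1-/- EVFx, 1.88 to 2.28 times with RNY1+/+ ProteinFx and 1.54 to 2.36 times with RNY1-/- ProteinFx. PBS and RNY1+/+ EVFx overlapped in the second ratio, and RNY1-/- EVFx and both ProteinFx groups lay above RNY1+/+ EVFx. These ratios were chosen after the values were seen, and an exact two-sided permutation test of groups that do not overlap gave the smallest p that 4 against 4 libraries allow, 0.0286, or 0.0527 after adjustment over 24 comparisons.

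**Figure D2:**
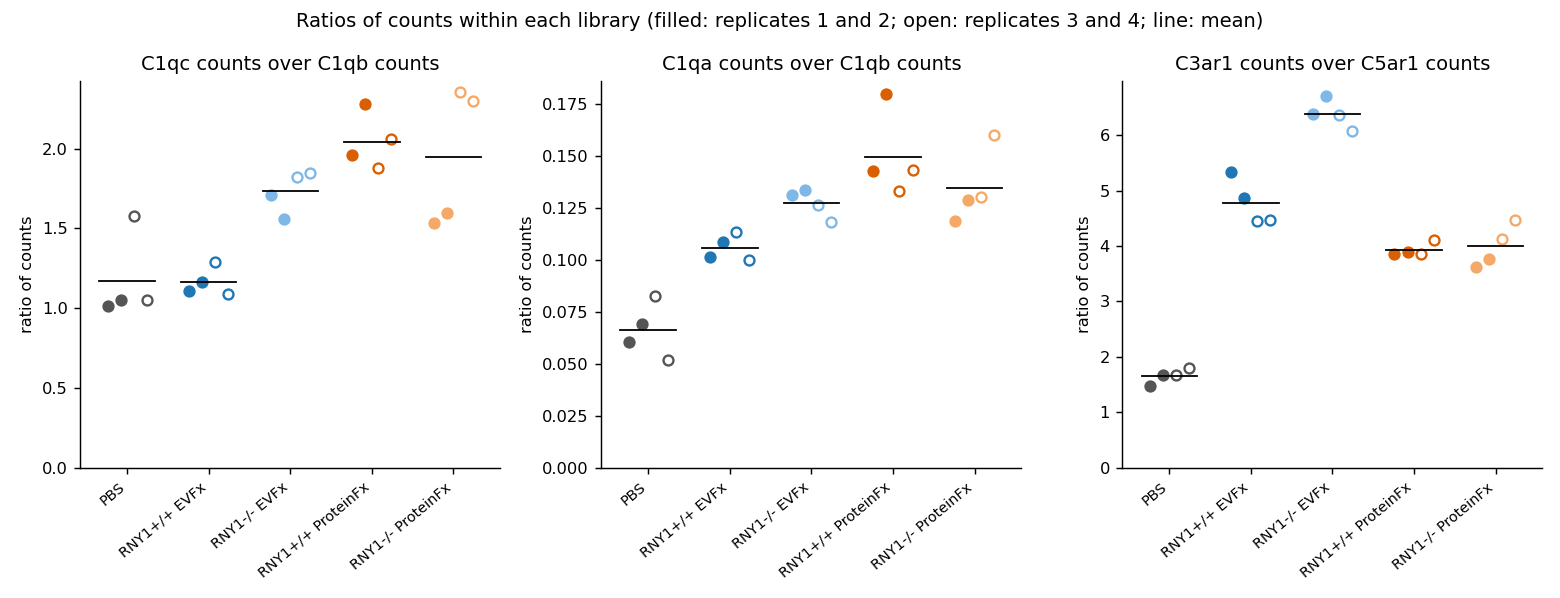
Ratios of counts within each library (vertical axes, linear from 0) for C1qc over C1qb, C1qa over C1qb and C3ar1 over C5ar1 in the 5 groups. Points are libraries, filled for replicates 1 and 2, and lines are means of the 4 ratios; the C3ar1 over C5ar1 ratio was at most 1.79 with PBS and at least 3.62 in the treated groups.

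C5ar1, the receptor for C5a, had 1011, 859, 955 and 887 CPM in PBS. It had 224, 243, 192 and 205.5 CPM with RNY1+/+ EVFx and 216, 201.2, 143 and 168 CPM with RNY1-/- EVFx. It had 604, 571, 614 and 596 CPM with RNY1+/+ ProteinFx and 598, 569, 514 and 488 CPM with RNY1-/- ProteinFx. The order was PBS, then both ProteinFx groups, then both EVFx groups, without overlap between these 3 levels and with overlap between genotypes. The log2 differences from PBS were -1.93 (SE 0.11, adjusted p = 1.7e-07) and -2.11 (SE 0.14, adjusted p = 4e-07) for RNY1+/+ and RNY1-/- EVFx, and -0.47 (SE 0.10, adjusted p = 0.0022) and -0.71 (SE 0.11, adjusted p = 0.00069) for RNY1+/+ and RNY1-/- ProteinFx. Neutrophils also express C5ar1. The neutrophil marker levels given above were lowest with RNY1+/+ EVFx. Mean C5ar1 was lowest with RNY1-/- EVFx, at 182 CPM beside 216 CPM with RNY1+/+ EVFx. The part of neutrophils in the result was not tested.

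C3ar1, the receptor for C3a, had 1496, 1441, 1587 and 1591 CPM in PBS. ProteinFx raised it to 2329.7, 2220.1, 2372 and 2448 CPM (RNY1+/+; 0.79, SE 0.10, adjusted p = 6.3e-05) and to 2167, 2143, 2122 and 2183 CPM (RNY1-/-; 0.56, SE 0.10, adjusted p = 0.0021). With RNY1+/+ EVFx it had 1195, 1183, 852 and 919 CPM (-0.38, SE 0.13, adjusted p = 0.031) and with RNY1-/- EVFx 1376, 1351, 911 and 1020.3 CPM (-0.15, SE 0.14, adjusted p = 0.35). All EVFx libraries were below and all ProteinFx libraries above the PBS libraries in CPM. The smaller differences were less stable: the RNY1+/+ EVFx call was lost without PBS replicate 1, PBS replicate 4, RNY1+/+ EVFx replicate 3 or RNY1+/+ EVFx replicate 4 (adjusted p up to 0.094), and with length and GC trends removed RNY1-/- EVFx was lower (-0.57, adjusted p = 0.0041) and RNY1-/- ProteinFx was not called (0.18, adjusted p = 0.21).

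**Figure D3:**
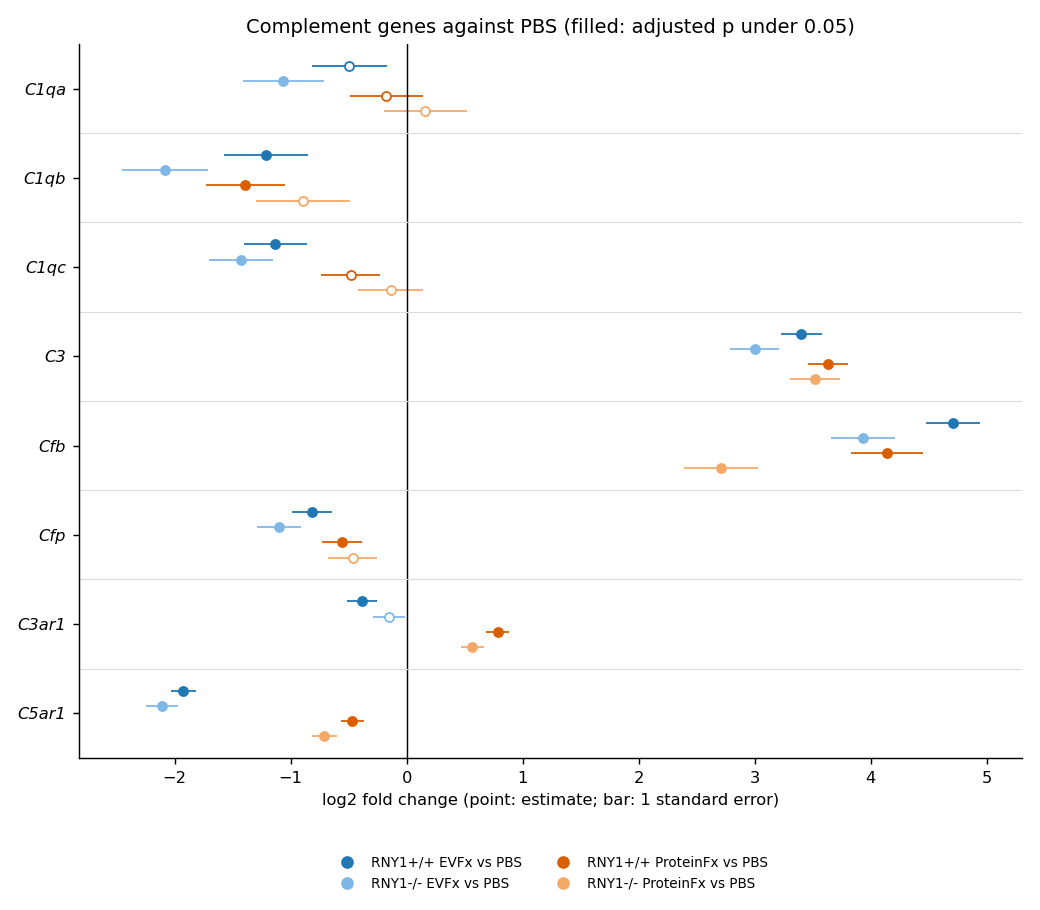
Log2 fold change against PBS (horizontal axis) of the 8 measurable complement genes in the 4 treated groups, with bars of 1 standard error. Filled points have an adjusted p under 0.05; C3 and Cfb lie right of 2 in all groups and C5ar1 lies left of 0 in all groups.

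C2, the classical pathway protease, and C4b, the classical pathway component C4, were near the floor. C2 had 2 to 21 counts per library, at most 2.63 CPM, with group means from 0.869 ± 0.334 CPM (SD, n = 4, RNY1-/- ProteinFx) to 1.18 ± 0.456 CPM (SD, n = 4, RNY1-/- EVFx). C4b had 0 to 7 counts, and 9 of the 20 libraries had none, which allows up to 3 counts at the depth of each. C4b shares reads with the near-identical C4a, and the 2 summed reached at most 9 counts. A change of either gene was not detectable at this depth.

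The second question was whether removal of RNY1 from the fluid donors changed what the fractions did. In EVFx, 5 of the 10 genes were lower with the RNY1-/- preparation and none was higher, beside 26.6% lower and 25.5% higher among all genes. Cfb was lower by -0.76 (SE 0.15, adjusted p = 0.0015), a 1.69-fold difference without overlap between the groups. C1qb was lower by -0.86 (SE 0.19, adjusted p = 0.0023), C1qa by -0.55 (SE 0.18, adjusted p = 0.024), C3 by -0.39 (SE 0.13, adjusted p = 0.021) and Cfp by -0.28 (SE 0.11, adjusted p = 0.042), each with some overlap. C1qc (-0.29, adjusted p = 0.1), C3ar1 (0.24, adjusted p = 0.17) and C5ar1 (-0.18, adjusted p = 0.21) did not pass. Across all 10320 genes tested, the EVFx genotype difference fell with GC content (Spearman rho -0.65, across genes, which are not independent), and with length and GC trends removed Cfb was the 1 gene still called, C1qb moving to -0.42 (adjusted p = 0.052), C1qa to -0.05 (adjusted p = 0.82), C3 to -0.19 (adjusted p = 0.2) and Cfp to 0.13 (adjusted p = 0.23). Without RNY1-/- EVFx replicate 4, 2 genes were called.

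In ProteinFx, Cfb was lower with the RNY1-/- preparation by -1.40 (SE 0.25, adjusted p = 0.0055), 2.64-fold and without overlap, and it was the 1 gene of 10 called, beside 2.20% of all genes higher and 3.37% lower. The other 7 measurable genes did not pass, with 95% intervals of the log2 difference from 0.10 to 0.94 for C1qb (adjusted p = 0.2), -0.35 to 0.15 for C3 and -0.41 to -0.04 for C5ar1 (adjusted p = 0.22). The C1q values depended on which RNY1-/- ProteinFx libraries were used: without replicates 3 and 4 of that group, C1qa (0.64), C1qb (0.90), C1qc (0.52) and Cfp (0.33) were higher with RNY1-/- ProteinFx, 5 genes being called in all, and without replicates 1 and 2 C1qa and C1qb were at -0.017 and -0.015 and 2 genes, C3 (-0.36, adjusted p = 0.039) and Cfb, were lower. Without replicate 3 alone, 4 genes were called.

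In the main test, the genotype effect differed between fractions for the C1q genes. The difference, taken as the effect in ProteinFx minus the effect in EVFx in 1 model of 16 libraries, was 1.38 (SE 0.32, adjusted p = 0.0061) for C1qb, 0.92 (SE 0.29, adjusted p = 0.023) for C1qa and 0.65 (SE 0.20, adjusted p = 0.023) for C1qc. These were 3 of the 8 genes tested, beside 33.0% of all genes tested, a share near the background. In 1 fit of all 20 libraries, C1qb was the 1 gene called. Across all 10444 genes tested, the difference of genotype effects rose with GC content (Spearman rho 0.59, across genes, which are not independent). Cfb (-0.64, SE 0.31, adjusted p = 0.12), C3, Cfp, C3ar1 and C5ar1 did not pass. No gene was called without RNY1-/- ProteinFx replicates 1 and 2, 6 were called without replicates 3 and 4, and with length and GC trends removed C1qa (0.37, adjusted p = 0.23) and C1qc (0.17, adjusted p = 0.46) were not called and Cfb was (-0.97, adjusted p = 0.024). A single library, RNY1-/- EVFx replicate 4, RNY1+/+ ProteinFx replicate 4 or RNY1-/- ProteinFx replicate 2, reduced the count to 1 when left out.

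**Figure D4:**
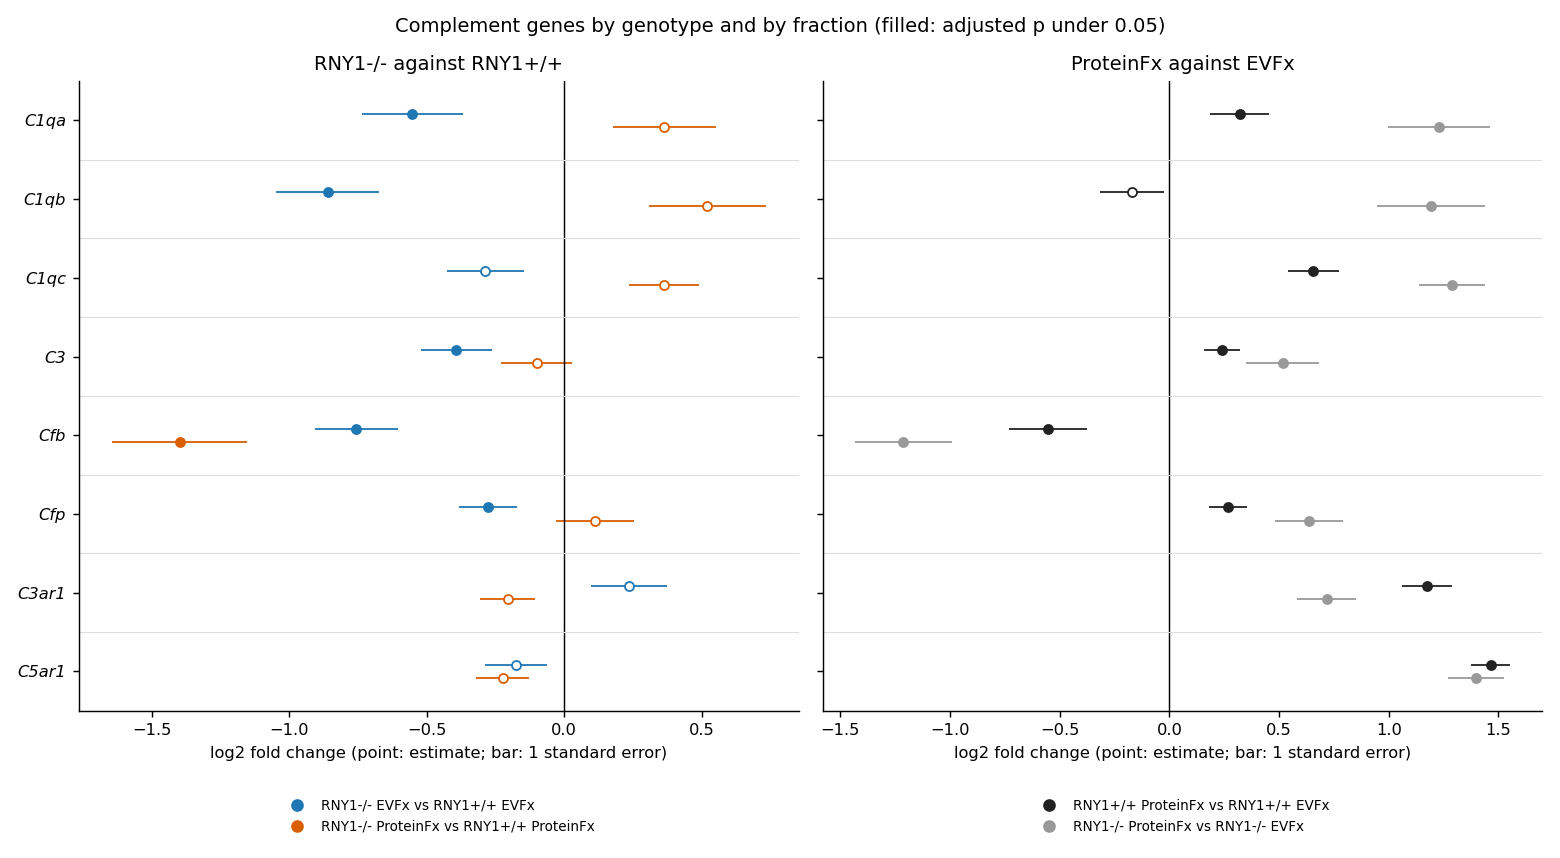
Log2 fold changes (horizontal axes, bars of 1 standard error) of the 8 measurable complement genes for RNY1-/- against RNY1+/+ within each fraction (left) and ProteinFx against EVFx within each genotype (right). Filled points have an adjusted p under 0.05; Cfb lies left of 0 in all 4 comparisons, and C5ar1 lies at 1.46 and 1.40 in the comparison of fractions.

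The third comparison set ProteinFx beside EVFx within each genotype. Within RNY1+/+, 6 genes were higher and 1 lower with ProteinFx, beside 31.1% and 32.2% of all genes. Within RNY1-/-, 7 were higher and 1 lower, beside 14.6% higher and 14.6% lower. Without RNY1-/- ProteinFx replicates 1 and 2, C3 (0.26, adjusted p = 0.26) and Cfp (0.37, adjusted p = 0.051) were not called within RNY1-/-. C5ar1 was higher by 1.46 (SE 0.09, adjusted p = 4.7e-09) and 1.40 (SE 0.13, adjusted p = 4.7e-06), and C3ar1 by 1.18 (SE 0.11, adjusted p = 6.3e-07) and 0.72 (SE 0.13, adjusted p = 0.0014). C1qc was higher by 0.66 (SE 0.12, adjusted p = 0.00022) and 1.29 (SE 0.15, adjusted p = 4e-05). C1qb did not pass within RNY1+/+ (-0.17, SE 0.15, adjusted p = 0.32) and was higher within RNY1-/- (1.19, SE 0.25, adjusted p = 0.0029). Cfb was the gene with the opposite sign, lower with ProteinFx by -0.55 (SE 0.18, adjusted p = 0.013) and -1.21 (SE 0.22, adjusted p = 0.0011). The smaller RNY1+/+ differences of C1qa (0.32), C3 (0.24) and Cfp (0.27) were not called when all 20 libraries were fitted together, and without length and GC trends Cfb was at -0.26 (adjusted p = 0.21) and C1qb at 0.33 (adjusted p = 0.029) within RNY1+/+.

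The rest of the pathway was read from a list of 58 complement genes, 48 of them other than the 10. None of the 6 terminal components passed the filter in any comparison. Of the 48, 14 were tested with RNY1+/+ EVFx (2 higher, 8 lower), 14 with RNY1-/- EVFx (2 higher, 9 lower), 15 with RNY1+/+ ProteinFx (3 higher, 7 lower) and 15 with RNY1-/- ProteinFx (3 higher, 5 lower). Among all genes tested, the shares higher and lower were 21.7% and 22.8%, 27.7% and 30.6%, 25.9% and 29.3%, and 16.7% and 19% in the same order. Cd55, a membrane inhibitor that breaks up the C3-cleaving enzymes, had 1.02, 0.463, 1.49 and 1.957 CPM in PBS, 6.81 to 15.04 CPM in the EVFx libraries and 20.2 to 67.8 CPM in the ProteinFx libraries. Every treated library lay above the PBS libraries, with log2 differences of 3.14 (SE 0.35), 3.76 (SE 0.29), 5.48 (SE 0.35) and 4.77 (SE 0.39). These are in the order RNY1+/+ EVFx, RNY1-/- EVFx, RNY1+/+ ProteinFx and RNY1-/- ProteinFx. PBS libraries held 3 to 11 counts, so these sizes rest on few reads. The treated libraries carried Cd55 past the filter, so no test against PBS is read from it, and the counts above include it.

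C5ar2, the second C5a receptor, had 7.45 to 8.69 CPM in PBS and 0.966 to 2.01 CPM with EVFx, with log2 differences of -2.17 and -1.98. In the EVFx comparisons the PBS libraries carried it past the filter, so no test is read from them. The EVFx counts of genes tested given above include C5ar2. It did not pass with ProteinFx (-0.44, adjusted p = 0.053, and -0.10, adjusted p = 0.67). Itgam, the alpha chain of complement receptor CR3, was lower with EVFx (-0.71, adjusted p = 0.0012, and -0.53, adjusted p = 0.0028) and higher with ProteinFx (1.49, adjusted p = 6.5e-06, and 1.11, adjusted p = 0.00031). Cd93 fell in all 4 groups, by -1.58, -1.60, -1.33 and -1.06, as did the scavenger receptor Lrp1 and the recognition lectin Fcna, ficolin A. C1ra, a protease of the C1 complex, averaged 1.39 CPM with PBS, 3.68 and 3.69 CPM with RNY1+/+ and RNY1-/- EVFx and 5.06 and 5.78 CPM with RNY1+/+ and RNY1-/- ProteinFx. All treated libraries lay above the PBS libraries. Among the comparisons with PBS it was tested with ProteinFx alone, where the treated libraries carried it past the filter, so no test is read from it. The counts of genes higher with ProteinFx given above include C1ra.

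**Figure D5:**
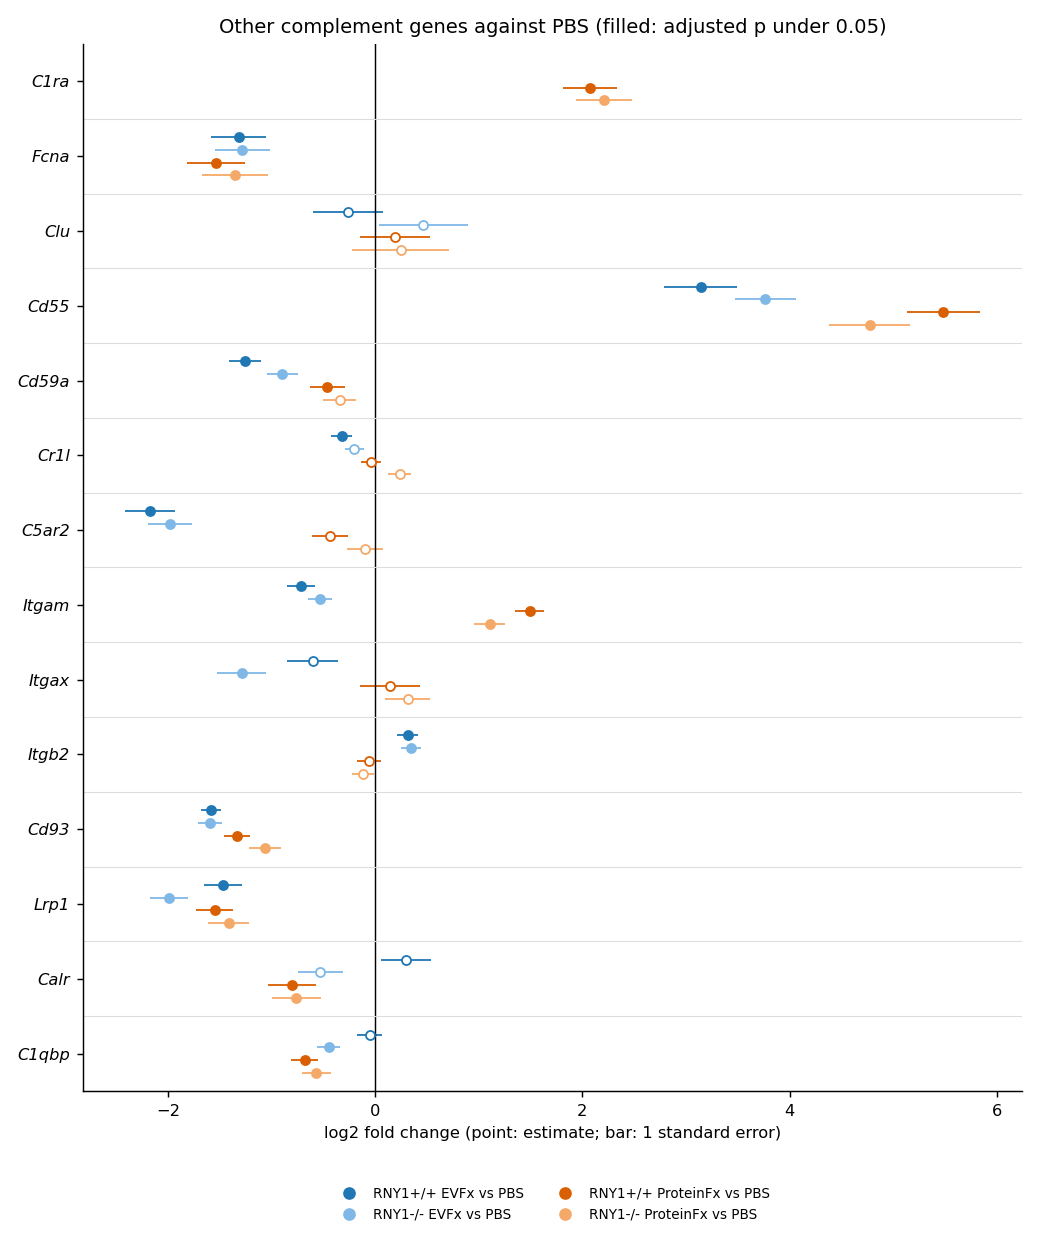
Log2 fold change against PBS (horizontal axis, bars of 1 standard error) of 14 other complement genes that passed the filter, in the 4 treated groups. Filled points have an adjusted p under 0.05 and genes without a point in a group were not tested there; Cd55 lies right of 3 in all groups, and Itgam lies left of 0 with EVFx and right of 1 with ProteinFx.

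For the genotype comparison, 13 of the 48 other genes were tested in EVFx, where Cd55 was higher with the RNY1-/- preparation (0.63, SE 0.18, adjusted p = 0.01) and Lrp1 (-0.51), Calr (-0.83) and C1qbp (-0.39) were lower, beside 25.5% of all genes higher and 26.6% lower. Removal of length and GC trends was not run for these genes. Calr and C1qbp encode calreticulin and a C1q-binding protein. In ProteinFx, 15 were tested and none passed. The genotype effect differed between fractions for 5 of 14 genes, near the 33.0% of all genes tested, and was lower in ProteinFx for Cd55 (-1.34, SE 0.36, adjusted p = 0.012) and Itgam (-0.56, SE 0.16, adjusted p = 0.017) and higher for Lrp1 (0.67), Calr (0.89) and C1qbp (0.53). Between ProteinFx and EVFx, 7 of 14 genes were higher with ProteinFx and 3 lower within RNY1+/+, beside 31.1% and 32.2% of all genes. Within RNY1-/-, 9 of 15 were higher and 1 lower, beside 14.6% and 14.6%. Cd55, Cd59a and Cr1l, the 3 membrane inhibitors that were tested, were higher in both genotypes, as were the integrin chains Itgam and Itgax. C5ar2 also stood higher, but the ProteinFx libraries carried it past the filter, and the counts of genes tested include it. Itgb2, the shared integrin beta chain, was lower (-0.36 and -0.47).

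Across the 20 libraries, log2 CPM of C3 followed that of Oasl2 (Pearson r = 0.993), Gm12250 (0.989) and Oas3 (0.988) most closely among 7550 genes with at least 10 CPM on average. Cfb followed Slc2a6 (0.992) and Saa3 (0.987), apart from the entry that shares its reads. C1qb was most like Arpc3 (0.977), C1qc most like Pycard (0.951) and C1qa most like Tmem106a (0.921), and C1qa was also close to C1qc (0.910). Cfp was most like Clec12a (0.974), C3ar1 most like Reep3 (0.974) and C5ar1 most like Zranb3 (0.958). Within the set, the closest pairs were C1qb with Cfp (0.959), C1qa with C1qc (0.910) and C3 with Cfb (0.889). These coefficients describe 20 libraries that share group means, depth and base composition, and carry no test.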

How the data were processed

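RNA of 20 macrophage cultures was measured by 3′-end RNA-seq with molecular identifiers, in 5 groups of 4 libraries taken from the labels. Per the submitters' processing notes, the authors used FastQC 0.12.1, fastp 0.24.0, STAR 2.7.11, SAMtools 1.22.1, MultiQC 1.32, featureCounts of Subread 2.1.1 and edgeR 4.0.16 with build GRCm39; the annotation release is not given in the sources used here. The deposited values are estimated counts per gene and CPM, which the authors obtained by dividing each count by its library total. Per the methods, reads that map to several places were assigned in fractions, and 23.6% to 26.3% of detected genes per library hold fractions. Spike-in rows (92, holding 0.00145% of counts) were left out.

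Counts were rounded and tested in R 4.3.3 with edgeR 4.0.16 (TMM scaling, quasi-likelihood test, a filter requiring filterByExpr and, averaged across the compared libraries, 3 CPM or more, Benjamini-Hochberg adjustment over all genes tested), with a call at an adjusted p under 0.05. Each comparison was fitted on its 8 libraries, and the difference of genotype effects on 16. SE is the log2 fold change divided by the square root of F, and intervals are normal 95% intervals from it. Totals of 2510005 to 8277366 counts per library set the precision, and 3 counts served as the floor. Positions came from GENCODE annotation of GRCm38, not the build of the files, and promoters from RefSeq GRCm38.p6. Named genes were the 10 members, other genes of a fixed complement list that passed the filter, and the 3 genes most correlated with each member. The members and lists were chosen with earlier results of these data known.

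Alternatives were DESeq2 1.42.0, total-count scaling, filterByExpr alone, no filter, 1 fit of all 20 libraries, an added fold threshold, a replicate block, removal of length and GC trends, and omission of single libraries or of pairs of RNY1-/- ProteinFx libraries. Omission of pairs of PBS libraries, and summing Cfb with Gm20547, were chosen after seeing the data. Replicate numbers carried no stated meaning. Same-numbered libraries deviated together in every pair, with correlations above 0.1, for PBS with RNY1-/- EVFx (0.128 to 0.381) and for RNY1-/- EVFx with RNY1-/- ProteinFx (0.217 to 0.399), and not for the 8 other pairs of groups. The closest match had the same number for 1 PBS library in the first pair and for all 4 RNY1-/- EVFx libraries in the second. For PBS with RNY1-/- ProteinFx, the correlations of replicates 1 to 4 were 0.51, 0.62, 0.64 and 0.019. The result of 1 other gene of the complement list is not reported here. The fitting script was tested on simulated data.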

Additional observations from a re-analysis of the deposited data

Results flagged for a closer look

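The genotype effect differed between fractions in the interaction test for C1qb (1.38 on the log2 scale, ProteinFx minus EVFx), C1qa (0.92) and C1qc (0.65). These were 3 of the 8 genes tested, beside 33.0% of all genes tested. C1qa and C1qc were not called with length and GC trends removed or in 1 fit of all 20 libraries. No gene was called without RNY1-/- ProteinFx replicates 1 and 2. Among 50 sets of 4 libraries examined for a value far from the others, 2 were found, where chance gives about 1 in 20. For C4b, the highest RNY1-/- EVFx library had 0.394 CPM, which is 3 counts, beside 3 libraries with none. For Cfb, the lowest RNY1+/+ EVFx library had 33.1 CPM beside 45.4 to 47.6 CPM.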

How the results depend on the processing

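Against PBS, the rise of C3 and the fall of C5ar1 kept their direction and passed the test in the alternatives run. The exception was C5ar1 with ProteinFx, which did not reach an absolute log2 fold change of 1. The rise of Cfb kept its direction as well, and no test against PBS is read from it. Of 72 values of single genes, the direction and call held for 71 with DESeq2, 68 with total counts, 72 with filterByExpr alone, 60 without a filter, 62 in 1 fit of all 20 libraries and 50 after removal of length and GC trends, and for 577 of 640 when single libraries were left out.

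Requiring in addition an absolute log2 fold change above 1, the genes called numbered 3 for RNY1+/+ ProteinFx and 2 for RNY1-/- ProteinFx against PBS, 0 for genotype in EVFx, 2 and 5 for ProteinFx against EVFx in RNY1+/+ and RNY1-/-, and 1 for the difference of genotype effects. In 1 fit of all libraries they numbered 2 for genotype in EVFx, 4 for ProteinFx against EVFx in RNY1+/+ and 1 for the difference of genotype effects. Genotype in ProteinFx gave 2 without a filter, 2 without length and GC trends, 2 without RNY1-/- ProteinFx replicates 1 and 2 and 5 without replicates 3 and 4; the difference of genotype effects gave 0 and 6 without the same pairs, and RNY1-/- ProteinFx against PBS gave 7 without PBS replicates 3 and 4. Genotype in EVFx gave 1 without length and GC trends. When single libraries were left out, counts ranged from 5 to 8 and 5 to 7 for RNY1+/+ EVFx and ProteinFx against PBS, 6 to 7 and 4 to 6 for RNY1-/- EVFx and ProteinFx, 2 to 6 and 1 to 4 for genotype in EVFx and ProteinFx, 6 to 7 and 7 to 8 for ProteinFx against EVFx in RNY1+/+ and RNY1-/-, and 1 to 4 for the difference of genotype effects.

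The replicate block gave 7, 6, 7 and 6 genes against PBS (RNY1+/+ EVFx, RNY1+/+ ProteinFx, RNY1-/- EVFx, RNY1-/- ProteinFx), 7 and 1 for genotype in EVFx and ProteinFx, 7 and 8 for ProteinFx against EVFx and 3 for the difference of genotype effects. In the 2 comparisons whose same-numbered libraries all correlated above 0.1 it changed no call. For RNY1-/- ProteinFx against PBS, where 3 of the same-numbered pairs correlated above 0.1, it raised the count from 4 to 6. The block with length and GC trends removed gave 3 for genotype in EVFx.

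Signs turned as follows. Without length and GC trends, and with the block added in parentheses, the log2 values against PBS were 0.64 (0.69) for C1qa and 0.19 (0.21) for C1qc with RNY1+/+ ProteinFx, and 0.50 (0.52) for C1qc and 0.0011 (0.00084) for Cfp with RNY1-/- ProteinFx. For genotype in EVFx they were 0.16 (0.15) for C1qc, 0.13 (0.13) for Cfp and -0.042 (-0.050) for C3ar1. C1qb was 0.33 (0.34) for ProteinFx against EVFx in RNY1+/+, and Cfp -0.067 (-0.069) for the difference of genotype effects. Without PBS replicates 1 and 2, C1qa was 0.33 with RNY1+/+ EVFx and 0.65 with RNY1+/+ ProteinFx, and C1qc 0.13 and 0.49 with RNY1+/+ and RNY1-/- ProteinFx. Without PBS replicates 3 and 4, C1qa was -0.37 with RNY1-/- ProteinFx. Without RNY1-/- ProteinFx replicates 1 and 2, C1qa against PBS was -0.21, and genotype in ProteinFx was -0.017 for C1qa, -0.015 for C1qb and -0.16 for Cfp. Without replicates 3 and 4, C1qc against PBS was 0.032, genotype in ProteinFx was 0.10 for C3, and the difference of genotype effects was 0.017 for C5ar1, which was also 0.11 with total counts and 0.028 without a filter. With single libraries left out, C1qa ranged from -0.41 to 0.081 with RNY1+/+ ProteinFx and from -0.069 to 0.40 with RNY1-/- ProteinFx, C1qc from -0.36 to 0.047 with RNY1-/- ProteinFx, and the C5ar1 difference of genotype effects from -0.15 to 0.042. The cause was not tested. Depth limited C2 and C4b.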
